A study of Mus musculus with 8 samples.

Results

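The liver-enriched miRNAs followed here in mouse plasma were mmu-miR-122-5p, mmu-miR-122-3p, mmu-miR-148a-3p, mmu-miR-193a-3p, mmu-miR-802-5p, mmu-miR-101a-3p, mmu-miR-101b-3p and mmu-miR-101c, written below without the mouse prefix. They were taken from the array by name and are 8 of the 1881 mouse miRNAs that it measures. The mice were female NMRI, an outbred stock, aged 3 months. Doxorubicin (DOX), an anthracycline that damages DNA, was injected into the tail vein in saline, 4 doses of 3 mg/kg on alternate days, in 9 mice. Imatinib (IMB), a tyrosine kinase inhibitor, was given by mouth in water at 100 mg/kg a day for 9 days, in 9 mice. Controls (CTRL), 6 mice, received the solvents alone. Each of the 8 one-colour arrays held RNA from the plasma of 3 pooled mice, so that there were 3 DOX pools, 3 IMB pools and 2 CTRL pools, and single mice cannot be seen. The labels name no transgene or deletion and do not say which solvent a control mouse received.

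miRNAs are short RNAs that pair with messenger RNAs through their seed, the bases near the 5′ end, and lower the output of those messages. miR-122-5p is the most abundant miRNA of hepatocytes, where it acts on cholesterol and lipid metabolism, and its level in plasma is widely used as a marker of liver injury. miR-148a-3p is also abundant in liver and acts on cholesterol handling, and the miR-101 family is best known for targeting Ezh2, a histone methyltransferase. Plasma carries miRNAs from many tissues, in vesicles and bound to protein, and an array reading does not name the source.

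Mature sequences are shown because several of these miRNAs are near copies of each other, or share a seed with a relative on the array. Sequences were found by name in RefSeq (GRCm38.p6) for 6 of the 8 miRNAs, and capitals mark the seed, bases 2 to 8. The miR-101 members are the closest to each other:
miR-101a-3p: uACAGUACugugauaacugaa
miR-101b-3p: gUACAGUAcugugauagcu
miR-101c: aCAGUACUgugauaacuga

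The whole of miR-101c, 19 bases, is found inside miR-101a-3p, at its bases 2 to 20. miR-101b-3p carries 1 more base at its 5′ end than miR-101a-3p, and over the 18 bases that can be laid side by side it differs at a single place, A16G, with the miR-101a-3p base first and positions counted from its 5′ end. Because of the shifted start the 3 entries have 3 different seeds. miR-101a-3p lies at chr4:101346957-101346977 on the minus strand, inside the lncRNA gene E130102H24Rik. miR-101b-3p lies at chr19:29135338-29135356 on the plus strand, inside the protein-coding gene Rcl1, and miR-101c at chr9:3038680-3038698 on the minus strand, inside no other gene of the table. The annotation gives gene spans, so exon and intron were not told apart.

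miR-148a-3p and miR-193a-3p each share a seed with relatives that were also on the array:
miR-148a-3p: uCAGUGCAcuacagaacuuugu
miR-148b-3p: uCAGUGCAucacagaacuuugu
miR-152-3p: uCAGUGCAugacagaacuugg
miR-193a-3p: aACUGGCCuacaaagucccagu
miR-193b-3p: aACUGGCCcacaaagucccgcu
miR-802-5p: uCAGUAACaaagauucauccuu

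Against miR-148a-3p, miR-148b-3p differs by C9U and U10C, and miR-152-3p by C9U, U10G and U20G. Against miR-193a-3p, miR-193b-3p differs by U9C, A20G and G21C. miR-148a-3p lies at chr6:51269829-51269850 on the minus strand, inside the span of Gm38821, miR-193a-3p at chr11:79712009-79712030 and miR-802-5p at chr16:93369737-93369758, both on the plus strand and inside no other gene. miR-802-5p shares its seed with no other mature entry of the table.

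Detection split the 8 miRNAs. Each has 2 probes, each with at most 15 spots after outliers were dropped. A miRNA counts as detected on an array if either probe does, and a probe does if Agilent flags more than 50% of the spots left as well above background. By this rule miR-122-5p, miR-148a-3p, miR-193a-3p, miR-101a-3p and miR-101c were detected on all 8 arrays. miR-122-3p, the passenger arm of the same hairpin as miR-122-5p, was detected on 1 array, IMB pool 2. miR-802-5p, which is raised in livers of obese mice, and miR-101b-3p were detected on 0 of 8 arrays, with 0% of kept spots well above background for either probe. The mean processed spot signal of the brighter miR-802-5p probe ran from 4.39 to 12.3, and that of the brighter miR-101b-3p probe from 2.45 to 7.37. Neither reading shows that the miRNA was absent, only that it was not well above background at this sensitivity. Agilent's own call per miRNA gave the same verdict for the 5 detected and the 2 undetected miRNAs, and called miR-122-3p on 5 of 8 arrays (2 of 3 DOX, 2 of 3 IMB and 1 of 2 CTRL pools).

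**Figure D1:**
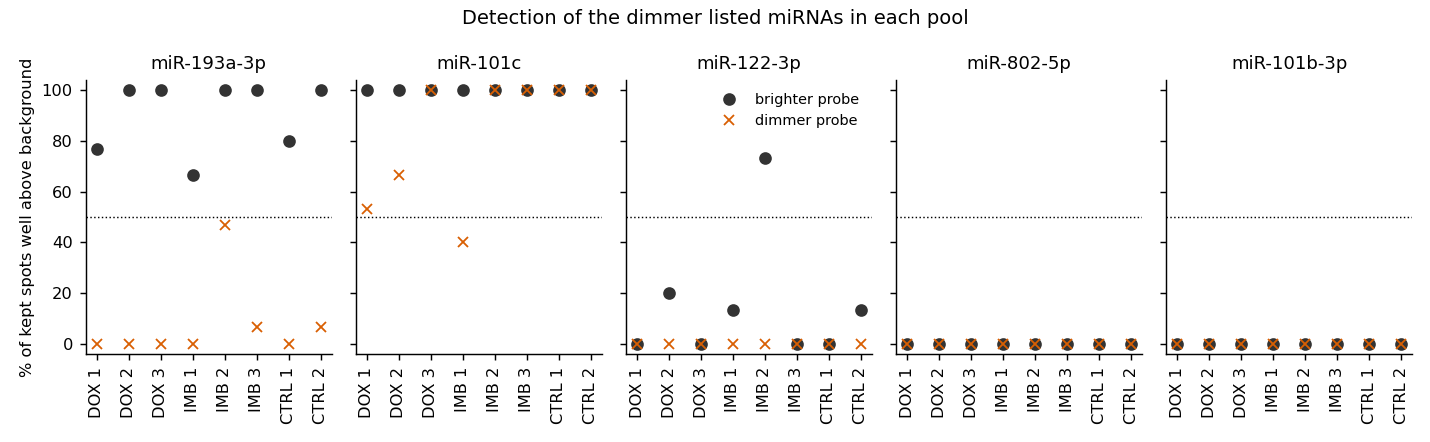
Percent of kept spots well above background (vertical axis) for the brighter probe (filled circles) and the dimmer probe (crosses) of 5 listed miRNAs in each pool (horizontal axis: DOX, IMB, CTRL). The dotted line is the 50% needed for a detected call; miR-802-5p and miR-101b-3p stay at 0% in every pool, and miR-122-3p passes the line in IMB pool 2 alone, at 73.3%.

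The 5 detected miRNAs were tested together with every other mouse miRNA detected on all arrays of at least 1 group, 294 in all. None of the 5 differed between groups past an adjusted p of 0.05 in limma, in any of the 3 comparisons, and 0 of 5 reached an unadjusted p under 0.05. That unadjusted count was 2 of 5 for IMB minus CTRL without IMB pool 3 (miR-122-5p and miR-148a-3p). By the authors' deposited table it was 1 of 5 (miR-193a-3p). For DOX minus CTRL it was 1 of 5 with Agilent's total signal, a lower floor, the brighter probe or the authors' deposited table. Each time the miRNA was miR-193a-3p. It was also 1 of 5 without DOX pool 1 (miR-193a-3p) or IMB pool 3 (miR-122-5p). The unadjusted share over all tested miRNAs was not counted in those settings, so these counts are not read as a result. Over all 294 miRNAs in the main fit, 0.34% passed the adjusted threshold for DOX minus CTRL. The share was 1.02% for IMB minus CTRL and 1.02% for IMB minus DOX. At the unadjusted threshold 8.5%, 7.82% and 10.9% passed in the main fit, in the same order of comparisons. The median log2 difference of the 5 was 0.26 for DOX minus CTRL, 0.22 for IMB minus CTRL and -0.05 for IMB minus DOX. Medians over all tested miRNAs were 0, 0.0086 and 0. Over miRNAs detected on all arrays they were 0.044, 0.041 and -0.036. The comparisons with CTRL share the same 2 control pools, so their values are set side by side and not read as separate evidence. In pooled plasma, a difference in RNA given per cell, in the number of cells giving RNA or in their tissue cannot be told apart.

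**Figure D2:**
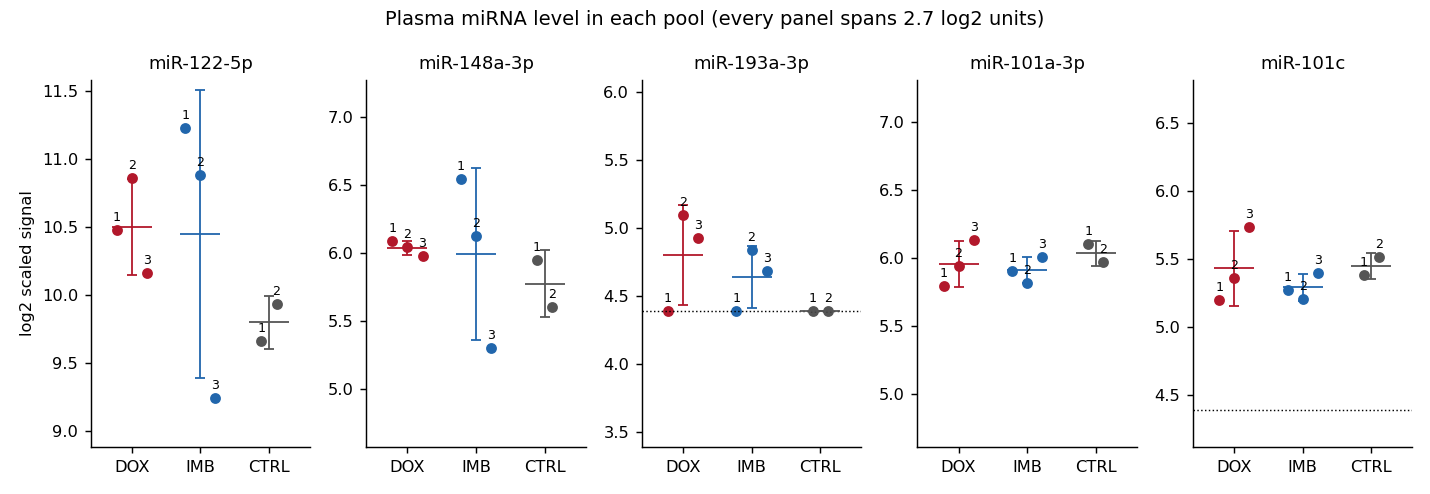
log2 scaled signal (vertical axis; every panel spans the same number of units) of the 5 detected miRNAs in each pool, numbered by replicate, with the group mean and SD (bars) for DOX, IMB and CTRL. The dotted line is the floor of 4.39; IMB pool 3 is the lowest of all pools for miR-122-5p and miR-148a-3p, while the miR-101 members stay within narrow ranges.

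miR-122-5p, the hepatocyte miRNA, varied more between pools than the other 4 tested here. Agilent's total signal was 457, 696 and 460 under DOX, 706, 1545 and 291 under IMB, and 366 and 672 in CTRL plasma. These totals are not scaled between arrays. After scaling each array to its 75th percentile of detected probes, log2 signal was 10.48, 10.86 and 10.16 under DOX, 11.22, 10.88 and 9.24 under IMB, and 9.66 and 9.93 in CTRL plasma. All 3 DOX pools lay above both controls, while the IMB pools held both its highest value and its lowest.

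Groups of pools that do not overlap were common: for DOX and CTRL they were found for 28.6% of the 294 miRNAs, and for 2 of the 5 listed here, miR-122-5p and miR-148a-3p. For IMB and CTRL the share was 17.7% over all and 0 of 5 here. For IMB and DOX it was 15% over all and 0 of 5 here. Some tested miRNAs, miR-148b-3p among them, were at the floor in every pool. They cannot lack overlap and so lower the shares over all.

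The mean log2 signal of miR-122-5p was 10.50 ± 0.35 in DOX (n = 3), 10.45 ± 1.06 in IMB (n = 3) and 9.80 ± 0.19 in CTRL pools (n = 2; SD in each). DOX minus CTRL was 0.70 on the log2 scale (SE 0.61, limma adjusted p = 0.91), a ratio of 1.63 with a 95% interval of 0.564 to 4.69. IMB minus CTRL was 0.65 (SE 0.61, limma adjusted p = 0.87), a ratio of 1.57 with a 95% interval of 0.544 to 4.53. IMB minus DOX was -0.05 (SE 0.55, limma adjusted p = 1), with a 95% interval of the ratio from 0.374 to 2.49. Every interval of this fit, on all 8 arrays, includes a ratio of 1. These SEs share the spread of all 3 groups, and the SD of the IMB pools was the largest. With only DOX and CTRL fitted, DOX minus CTRL had an SE of 0.26 (limma adjusted p = 0.30). Without IMB pool 3 the SE of DOX minus CTRL was 0.25 (limma adjusted p = 0.41). With only IMB and CTRL fitted, IMB minus CTRL had an SE of 0.73 (limma adjusted p = 0.96). Without IMB pool 3, IMB minus CTRL was 1.25 (adjusted p = 0.26; range over all alternatives 0.26 to 1) and IMB minus DOX 0.55 (adjusted p = 0.48), and without IMB pool 1 they were 0.26 and -0.44. Without IMB pool 2 they were 0.43 and -0.27. Without scaling DOX minus CTRL was 0.28.

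The arrays lay in 2 rows of a slide, and each row held all 3 groups. DOX minus CTRL of miR-122-5p was 1.01 in row 1 and 0.23 in row 2, with 1 control pool in each row, and 0.61 with the row as a block (limma adjusted p = 0.91). IMB minus CTRL was 1.56 in row 1 and 0.12 in row 2, and 0.74 with the block (limma adjusted p = 0.73). Both differences were positive in each row, but the rows split the same arrays and are not separate evidence. In row 2, IMB pool 2 at 10.88 and IMB pool 3 at 9.24 lay on either side of CTRL pool 2 at 9.93. IMB minus DOX was 0.56 in row 1 and -0.10 in row 2, and 0.13 with the block (limma adjusted p = 1). A row holds too few pools for a test of its own.

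The spread between pools set those intervals. The residual SD of miR-122-5p was 0.71 log2 units, the 4th highest of 294 miRNAs, whose median was 0.22. The 3 miRNAs with a higher SD were miR-1a-3p, miR-133a-3p and miR-133b-3p, which are enriched in muscle and were named after their values were seen. The 2 miR-122-5p probes followed each other closely on each array: the ratio of the brighter to the dimmer ran from 1.67 to 1.89, an SD of 0.05 on the log2 scale, and spots of one probe varied by 2.98% to 9.12% (coefficient of variation). Each probe on its own gave like differences: DOX minus CTRL was 0.73 for one and 0.69 for the other, and IMB minus CTRL was 0.66 for one and 0.64 for the other.

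**Figure D3:**
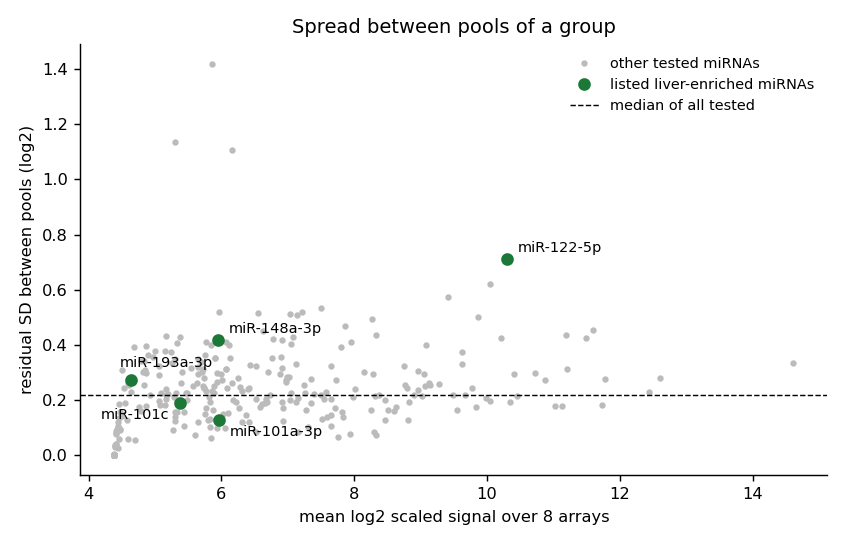
Residual SD between pools of a group (vertical axis, log2 units) against mean log2 scaled signal over the 8 arrays (horizontal axis) for the 294 tested miRNAs (grey), with the 5 listed miRNAs in green and the median SD of 0.22 as a dashed line. miR-122-5p stands at 0.71 and miR-148a-3p at 0.42, while miR-101a-3p lies at 0.13 and miR-101c at 0.19, both below the median.

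The other arm of the hairpin, miR-122-3p, was close to background. Agilent's total signal was 3.76 and 2.74 in DOX pools 2 and 3, 2.61 and 6.33 in IMB pools 1 and 2, and 3.28 in CTRL pool 2, and the other 3 pools stood at 0.1, the value it gives to an undetected miRNA. miR-802-5p and miR-101b-3p stood at 0.1 in all 8 pools. The brighter miR-122-3p probe read 11.1, 17.7 and 12.9 under DOX, 12.3, 23.3 and 7.51 under IMB, and 5.78 and 11.8 in CTRL plasma, as mean processed spot signal before scaling. After scaling that probe read 14.7, 20.1 and 13.6 under DOX, 17.7, 15.4 and 6.60 under IMB, and 5.43 and 9.55 in CTRL plasma. All of these lie under the floor of 20.9, IMB pool 2 included, and are not ranked. The miRNA was left out of the tests for lack of detection.

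miR-148a-3p showed a smaller version of the same order among the IMB pools. Agilent's total signal was 21.7, 24.7 and 25.3 under DOX, 27.6, 57.3 and 19.0 under IMB, and 27.9 and 33.3 in CTRL plasma. Its log2 scaled signal was 6.08, 6.04 and 5.98 under DOX, 6.55, 6.13 and 5.30 under IMB, and 5.95 and 5.60 in CTRL plasma. The DOX pools lay close together and above both controls, narrowly so for CTRL pool 1, and IMB pool 3 was again lowest. DOX minus CTRL was 0.26 (SE 0.36, limma adjusted p = 0.96) and IMB minus CTRL 0.22 (SE 0.36, limma adjusted p = 0.97). IMB minus DOX was -0.04 (SE 0.32, limma adjusted p = 1), and the 95% intervals of the ratio were 0.645 to 2.23, 0.625 to 2.16 and 0.557 to 1.69, in that order of comparisons. The sign of DOX minus CTRL turned with no scaling (-0.16). IMB minus CTRL was -0.06 without IMB pool 1 and 0.56 without IMB pool 3, and against CTRL pool 1 alone it was 0.044 and against CTRL pool 2 alone 0.39. With CTRL pool 1 as the lone control DOX minus CTRL was 0.089, and with CTRL pool 2 alone it was 0.43.

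Among the 294 tested miRNAs, miR-148a-3p was the one whose profile over the 8 arrays lay closest to that of miR-122-5p. The measure was the root mean square difference of mean-centred log2 signals, 0.37 for this pair against a median of 0.64 over all, and miR-3960 (0.37) and miR-7002-5p (0.40) followed. The same difference of 0.37 ranked miR-122-5p only 136 for miR-148a-3p, at about the median of 0.38 over all. The measure depends on the size of the swings as well as their shape, and the swings differed in size. About its own mean the root mean square was 0.63 for miR-122-5p and 0.35 for miR-148a-3p. The closest to miR-148a-3p were miR-466i-5p (0.18), miR-8109 (0.20) and miR-149-3p (0.20). These ranks describe the 8 arrays, which share 1 scaling each, and no test was made of them.

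The relatives with the miR-148a-3p seed are miR-152-3p and miR-148b-3p. miR-152-3p was at 5.27, 5.30 and 5.45 under DOX, 5.25, 5.05 and 5.21 under IMB, and 5.34 and 5.35 in CTRL plasma. By this mean of both probes its IMB pools lay below every DOX and CTRL pool, at -0.18 against CTRL (SE 0.08, limma adjusted p = 0.68) and -0.17 against DOX (SE 0.07, limma adjusted p = 0.41). By the brighter probe the IMB pools (5.42, 5.17 and 5.39) overlapped with the DOX pools (5.38, 5.46 and 5.59). They still lay below both controls (5.48 and 5.46) on that probe. miR-148b-3p was detected on 6 of 8 arrays, 1 of 3 DOX, 3 of 3 IMB and 2 of 2 CTRL, but the mean of its probes was at the floor on all 8, so no difference is given.

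miR-193a-3p, for which a role in restraining growth of tumour cells has been reported, was read by 1 of its 2 probes. That brighter probe was detected on all 8 arrays and the dimmer one on 0. Agilent's total signal was 5.05, 12.8 and 9.58 under DOX, 4.38, 23.4 and 9.79 under IMB, and 4.82 and 10.2 in CTRL plasma. The brighter probe's log2 scaled signal was 4.98, 5.69 and 5.58 under DOX, 4.89, 5.43 and 5.34 under IMB, and 4.42 and 4.89 in CTRL plasma. All drug pools lay above both controls on that probe, though IMB pool 1 and CTRL pool 2 both round to 4.89. By the brighter probe, groups did not overlap for 33.7% of the 294 miRNAs between DOX and CTRL, and for 3 of the 5 listed. Between IMB and CTRL it was 22.1% and 2 of 5, and between IMB and DOX 16.7% and 0 of 5. By the mean of both probes, miR-193a-3p overlapped with CTRL for each drug. In the tests both probes were averaged and values under the floor of 4.39 were raised to it, which put DOX pool 1, IMB pool 1 and both controls at the floor, so the control SD of 0 understates their error.

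DOX minus CTRL for miR-193a-3p was 0.41 (SE 0.24, limma adjusted p = 0.75) and IMB minus CTRL 0.25 (SE 0.24, limma adjusted p = 0.87). IMB minus DOX was -0.16 (SE 0.21, limma adjusted p = 0.87). With the brighter probe alone the differences from CTRL were 0.76 (adjusted p = 0.45) and 0.57 (adjusted p = 0.57), with a lower floor 0.75 and 0.56, and with Agilent's total signal 0.88 and 0.66. They were 1.005 and 0.82 by the authors' deposited table, and 0.25 and 0.10 with normexp. The size of the difference thus depends on the processing, and it did not pass the adjusted threshold in limma under any of these. DOX minus CTRL ran from 0.27 without DOX pool 2 to 0.62 without DOX pool 1, and IMB minus CTRL from 0.15 without IMB pool 2 to 0.37 without IMB pool 1. IMB minus DOX ran from -0.37 without DOX pool 1 to -0.018 without DOX pool 2. The miRNAs closest to its profile were miR-5130 (0.20), miR-467f (0.21) and miR-141-3p (0.21).

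miR-193b-3p, with the same seed, was at 6.14, 6.21 and 6.11 under DOX, 5.63, 6.35 and 5.79 under IMB, and 5.79 and 5.43 in CTRL plasma. Its 3 DOX pools lay close together and above both controls (0.54, SE 0.23, limma adjusted p = 0.59), and IMB minus CTRL was 0.31 (SE 0.23, limma adjusted p = 0.80).

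miR-101a-3p and miR-101c varied least between pools among the 5 tested. Agilent's total signal of miR-101a-3p was 17.8, 23.1 and 28.2 under DOX, 17.7, 46.4 and 31.1 under IMB, and 31.1 and 43.1 in CTRL plasma. That of miR-101c was 11.8, 15.4 and 21.4 under DOX, 11.4, 30.2 and 20.3 under IMB, and 18.8 and 31.4 in CTRL plasma. On both, IMB pool 2 and CTRL pool 2 were among the highest before scaling. After scaling, the log2 signal of miR-101a-3p was 5.80, 5.94 and 6.13 under DOX, 5.91, 5.82 and 6.01 under IMB, and 6.10 and 5.97 in CTRL plasma. That of miR-101c was 5.20, 5.36 and 5.74 under DOX, 5.27, 5.20 and 5.40 under IMB, and 5.38 and 5.51 in CTRL plasma. By these means of both probes the 3 groups overlapped for each miRNA, and DOX pool 3 was the highest pool for each. By the brighter probe of miR-101c, the IMB pools (5.72, 5.64 and 5.83) all lay below both controls (5.86 and 5.93). Groups did not overlap by that measure for 22.1% of the 294 miRNAs.

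For miR-101a-3p, DOX minus CTRL was -0.08 (SE 0.11, limma adjusted p = 0.96) and IMB minus CTRL -0.12 (SE 0.11, limma adjusted p = 0.87). The 95% intervals of the ratio were 0.779 to 1.15 and 0.756 to 1.11 in that order, the narrowest of the list. For miR-101c the differences were -0.02 (SE 0.16, limma adjusted p = 1) and -0.16 (SE 0.16, limma adjusted p = 0.90), with intervals of 0.745 to 1.31 and 0.676 to 1.19. IMB minus DOX was -0.04 (SE 0.10, limma adjusted p = 0.99) for miR-101a-3p and -0.14 (SE 0.15, limma adjusted p = 0.80) for miR-101c. These signs turned under some alternatives, and none of the values passed the threshold there.

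By the same measure the pair lay close: miR-101a-3p was the nearest to miR-101c of all tested (0.10), ahead of miR-152-3p (0.11) and miR-29c-3p (0.12). For miR-101a-3p the closest were miR-152-3p (0.09), miR-101c (0.10) and miR-6370 (0.10). Both miR-101 members varied little about their own means (root mean square 0.11 for miR-101a-3p and 0.17 for miR-101c). Other steady miRNAs also lie close by this measure, so it does not show that the pair rose and fell together. As miR-101c is contained in miR-101a-3p, the probes for 1 may also bind the other, which was not tested. Their signals are thus not taken as independent readings. The probes of miR-101b-3p stayed at background on the same arrays.

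**Figure D4:**
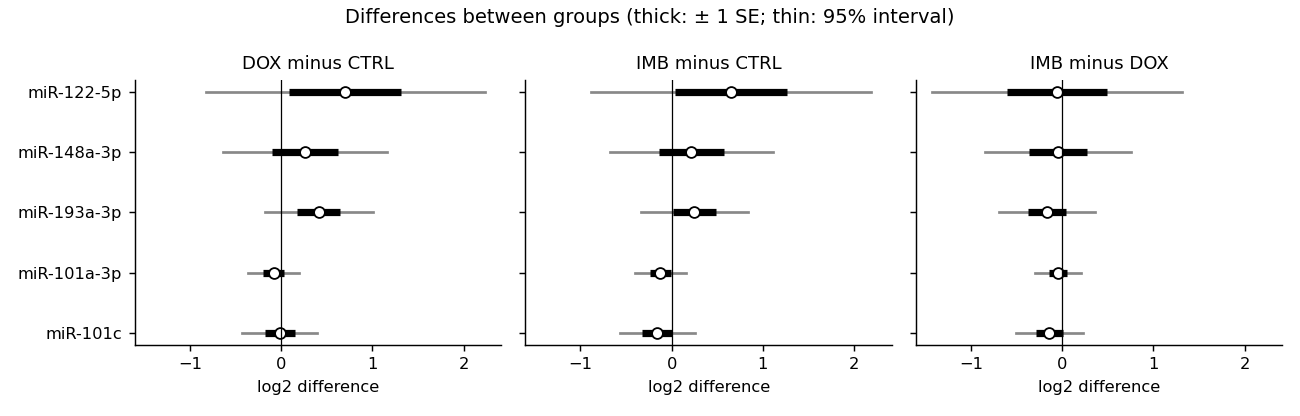
log2 differences (horizontal axis) of the 5 detected miRNAs for DOX minus CTRL, IMB minus CTRL and IMB minus DOX, from limma on all 8 arrays; circles are estimates, thick bars ± 1 SE and thin bars 95% intervals. Every interval includes 0; those of miR-122-5p are the widest and those of miR-101a-3p the narrowest.

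Other miRNAs that are enriched in liver or related to the list gave a like result. Of 16, 8 were tested, and 0 of 8 passed the adjusted threshold in any comparison. Of these 8, miR-148b-3p was at the floor in every pool. It could thus neither pass a threshold nor lack overlap, and its difference of 0 enters the medians. Their median log2 difference was 0.28 for DOX minus CTRL, 0.24 for IMB minus CTRL and -0.04 for IMB minus DOX. At an unadjusted p under 0.05 limma gave 0 of 8 for DOX minus CTRL, 2 of 8 for IMB minus CTRL and 0 of 8 for IMB minus DOX, beside 8.5%, 7.82% and 10.9% over all tested miRNAs. The 2 were miR-194-5p, made in liver and gut with miR-192-5p, at 0.80 (SE 0.30, limma adjusted p = 0.59), and miR-378a-3p, which lies in the metabolic regulator gene Ppargc1b, at 0.80 (SE 0.31, limma adjusted p = 0.59). miR-194-5p was at 5.77, 5.41 and 5.56 under IMB, and 4.50 and 5.06 in CTRL plasma. miR-378a-3p was at 5.78, 6.71 and 5.94 under IMB, and 5.39 and 5.29 in CTRL plasma. All 3 IMB pools lay above both controls for each. Groups did not overlap for 1 of 8 in DOX minus CTRL, 3 of 8 in IMB minus CTRL and 1 of 8 in IMB minus DOX, beside the 28.6%, 17.7% and 15% over all.

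miR-192-5p was at 9.02, 9.37 and 9.38 under DOX, 9.34, 8.80 and 8.91 under IMB, and 8.65 and 9.03 in CTRL plasma. DOX minus CTRL was 0.41 (SE 0.22, limma adjusted p = 0.71). It did not share the order of miR-122-5p: IMB pool 3 was not its lowest pool. miR-215-5p, a relative of miR-192-5p, differed from CTRL by 0.23 with doxorubicin and 0.15 with imatinib (SE 0.26 each), and miR-365-3p, encoded near miR-193, by 0.27 and 0.39 (SE 0.30 each). None passed in limma. miR-192-3p, miR-194-2-3p, miR-148a-5p, miR-193a-5p, miR-101a-5p, miR-101b-5p, miR-802-3p and miR-33-5p, 8 of the 16, were detected on no array.

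The arrays themselves differed in ways that bear on these readings. Agilent's total signal is the spot signal times a factor for the size of the printed feature, and the file headers give that size as the default 0.6 on 6 arrays, but as 0.768 on IMB pool 2 and 0.784 on CTRL pool 2. The total signal of the miR-122-5p probes was 0.212 of their mean spot signal on the 6 arrays, and 0.271 and 0.277 on the other 2, which is 1.29-fold higher on average. The totals of IMB pool 2 and CTRL pool 2 given above carry this factor, and the scaled values do not, since they start from spot signals. The 75th percentile before scaling was 213 to 267 in DOX, 196 to 425 in IMB and 300 to 349 in CTRL pools.

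**Figure D5:**
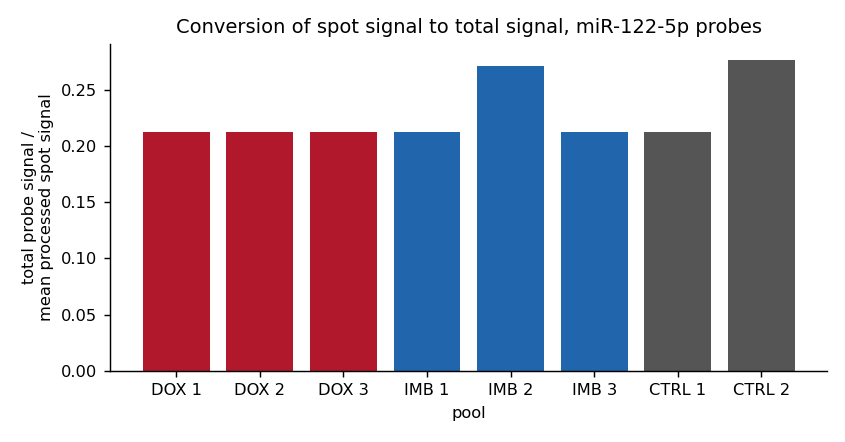
Ratio of Agilent's total probe signal to mean processed spot signal (vertical axis, no unit) for the miR-122-5p probes, one bar per pool (horizontal axis: DOX, IMB, CTRL). The ratio is 0.212 on 6 arrays, 0.271 on IMB pool 2 and 0.277 on CTRL pool 2.

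The red cell index, log2 miR-451a minus log2 miR-23a-3p, was 2.68 to 3.15 in DOX, 3.90 to 4.45 in IMB and 3.18 to 3.84 in CTRL pools. The summed scaled signal of 8 red cell markers, 7 of them detected on all arrays, was 19211 to 28542 in DOX, 33247 to 42313 in IMB and 24201 to 39723 in CTRL pools. That of 6 muscle markers, of which miR-206-3p, miR-208a-3p and miR-499-5p were not detected, was 114 to 318 in DOX, 99.6 to 1117 in IMB and 55.9 to 63.6 in CTRL pools. That of the platelet list, 3 of 5 detected and miR-191-5p not, was 2604 to 2728 in DOX, 1691 to 2275 in IMB and 1990 to 2444 in CTRL pools. That of the pancreas list, with miR-216a-5p and miR-217-5p not detected, was 71.7 to 89.2 in DOX, 50.6 to 81.6 in IMB and 58.6 to 61.2 in CTRL pools. The index ranges of the 3 groups did not overlap, so a fit with the index cannot part it from the treatment. In that fit miR-122-5p was at 0.86 (SE 0.94) for DOX minus CTRL and 0.51 (SE 0.88) for IMB minus CTRL. Neither passed in limma. The part of the muscle, platelet and pancreas lists in the readings above was not tested.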

How the data were processed

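Spot intensity, linear and background-subtracted with no scaling between arrays per the file headers, was deposited as 1 file per array, made with Agilent Feature Extraction 11.5.1.1 (1 colour, Cy3). The authors also deposited log2 values for 1902 miRNAs and controls, whose scaling is unstated in the labels and headers. Flags for detection and outliers, coded 0 or 1, were used as deposited.

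Processed signals were averaged over non-outlier spots per probe, arrays were scaled to the 75th percentile of the 454 probes detected on all 8, and probes of a miRNA were averaged. Averages under 20.9 were raised to it (log2 4.39, the median over arrays of percentile 1 of detected probes) before log2 was taken, and such values are not ranked. Saturation was flagged on 0 spots. limma 3.58.1 in R 4.3.3 (lmFit, eBayes, 2-sided, all 8 arrays, 5 residual and 0.605 prior degrees of freedom) was fitted over 294 miRNAs, adjusted by Benjamini-Hochberg per comparison, threshold 0.05. The limma fit was tested on simulated log2 values, and the steps before it were not.

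The listed miRNAs, the related list, the markers and the alternatives were chosen with earlier results of these data known. Named were all listed miRNAs, the related list, with values for those detected on all arrays, and the 3 closest profiles of each tested member. Pools are called biological replicates in the labels, each from 3 mice, and no 2 arrays held the same values. All arrays lie on 1 slide. The replicate number was not used as a block. The number of arrays limits the precision.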

Additional observations from a re-analysis of the deposited data

Results flagged for a closer look

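miR-122-3p, which entered no test, had 73.3% of the kept spots of its brighter probe well above background in IMB pool 2, against 0% and 13.3% in the CTRL pools, and so passed the 50% rule there and in neither control. Agilent's own call per miRNA detected it in CTRL pool 2 as well. The other pools read 0%, 20% and 0% in DOX, and 13.3% and 0% in IMB. IMB pool 2 was also the brightest array, with a 75th percentile of 425 before scaling and 339 mouse miRNAs detected, against 258 to 327 on the others. After scaling, the brighter miR-122-3p probe read 15.4 in IMB pool 2, 17.7 in IMB pool 1 and 20.1 in DOX pool 2. In CTRL pools it read 5.43 and 9.55, and all of these lie under the floor of 20.9.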

How the results depend on the processing

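Under 25 alternatives, 8 of them leaving out 1 pool, no listed miRNA passed the threshold in limma, and the smallest adjusted p was 0.26 (miR-122-5p, IMB minus CTRL, without IMB pool 3). miR-122-5p and miR-193a-3p kept a positive difference from CTRL in all 25, for both drugs, which was partly fixed in advance. Both controls of miR-193a-3p were at the floor in the main values, so a plain difference from them could not be negative. For both miRNAs some alternatives leave the estimate itself unchanged, such as eBayes with trend or leaving out a pool outside the comparison. Signs that turned are given next as log2 differences, and the causes were not tested. With normexp, DOX minus CTRL was 0.10 for miR-101a-3p and 0.17 for miR-101c. With no scaling, DOX minus CTRL of miR-148a-3p was -0.16, and IMB minus DOX was 0.25 for miR-122-5p, 0.26 for miR-148a-3p, 0.18 for miR-193a-3p, 0.26 for miR-101a-3p and 0.17 for miR-101c. With the percentile over all probes, IMB minus DOX was 0.033 for miR-122-5p, 0.041 for miR-148a-3p and 0.042 for miR-101a-3p. With quantile normalization it was 0.17 for miR-122-5p and 0.010 for miR-101a-3p, and by the authors' deposited values it was 0.17 for miR-122-5p and 0.0090 for miR-101a-3p. With miR-23a-3p and miR-24-3p as references, IMB minus CTRL was 0.084 for miR-101a-3p and 0.053 for miR-101c, and IMB minus DOX was 0.33 for miR-122-5p, 0.34 for miR-148a-3p, 0.17 for miR-193a-3p, 0.34 for miR-101a-3p and 0.24 for miR-101c. With the slide row as a block, DOX minus CTRL of miR-101c was 0.021, and IMB minus DOX was 0.13 for miR-122-5p and 0.10 for miR-148a-3p. With the red cell index in the fit, IMB minus CTRL was -0.0067 for miR-148a-3p and 0.040 for miR-101c. IMB minus DOX in that fit was 0.012 for miR-193a-3p, 0.13 for miR-101a-3p and 0.28 for miR-101c. The index ranges of the groups did not overlap, so that fit cannot part the index from the treatment. Leaving out 1 pool at a time, the range was -0.17 to 0.10 for miR-101c in DOX minus CTRL and -0.060 to 0.56 for miR-148a-3p in IMB minus CTRL. For IMB minus DOX it was -0.44 to 0.55 for miR-122-5p, -0.32 to 0.30 for miR-148a-3p, -0.12 to 0.044 for miR-101a-3p and -0.26 to 0.012 for miR-101c. The median of all tested miRNAs moved by -0.32 (DOX minus CTRL) and 0.23 (IMB minus DOX) with no scaling, by 0.18 (IMB minus CTRL) and 0.30 (IMB minus DOX) with the references, and by 0.11 (DOX minus CTRL) with normexp. Same-numbered pools deviated from their group means with r from -0.24 to 0.40 over 7 pairs, not over 0.1 in each, so the numbers were not taken to pair the pools; whether some pools shared a day or batch is not in the labels. With the replicate block, miR-122-5p was at 1.09 for DOX minus CTRL (adjusted p = 0.64), 1.04 for IMB minus CTRL (adjusted p = 0.54) and -0.05 for IMB minus DOX (adjusted p = 1), and none of the 5 listed miRNAs passed. Over all 294 miRNAs the block gave 0 calls for DOX minus CTRL, 2 for IMB minus CTRL and 4 for IMB minus DOX, against 1, 3 and 3 without it. Leaving out a control leaves 1, which is assumed to vary like the other groups. Signal over background limits miR-122-3p, miR-802-5p, miR-101b-3p and miR-193a-3p.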
